A study of Rattus norvegicus with 49 samples.

Results

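Synaptic vesicle and release genes encode the proteins that fill a presynaptic vesicle with transmitter, tether and fuse it at the nerve terminal, and take its membrane back afterwards. The set described here was Slc17a6, Slc17a7, Syngr3, Syp, Syn1, Snap25, Stx1a, Vamp2, Amph and Syt1, found by gene symbol in the array's annotation. Of these 10 genes, 9 had a probe set, and together they had 13 probe sets, out of 10411 genes and 15923 probe sets on the whole array. Syt1, the calcium sensor synaptotagmin 1, was not analysed here.

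The RNA came from CA1, the hippocampal field whose pyramidal cells send the main output of the hippocampus, dissected from the left hippocampus of Fisher 344 rats, an inbred strain widely used in ageing research. The animals were 3, 6, 9 and 12 months old (9 of each age) and 23 months old (13), with 1 Affymetrix RAE 230A array for each animal and 49 arrays in all. The labels give no genetic change, no drug and no sex, and all 5 age groups were trained in the Morris water maze, a test of spatial memory, and killed within a day of the last session. The authors left out 2 aged animals in poor health. The study asked which CA1 transcripts change with age. Values are MAS5 signals, the array's brightness for a probe set after scaling of each array to one target, and differences are in log2 units of signal. Signals of different probe sets are on different scales, so levels are compared between ages and not between genes.

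A glutamate vesicle is filled by a vesicular glutamate transporter. Slc17a7 encodes VGLUT1, the form that cortical and hippocampal pyramidal cells use at most of their terminals, and Slc17a6 encodes VGLUT2, the form typical of the thalamus and other subcortical regions. The vesicle membrane carries proteins with 4 spans such as synaptophysin (Syp) and synaptogyrin 3 (Syngr3), and synapsin I (Syn1) coats vesicles and holds them in a reserve pool. Fusion is driven by the SNARE proteins: synaptobrevin 2 (Vamp2) on the vesicle pairs with syntaxin 1A (Stx1a) and SNAP-25 (Snap25) on the plasma membrane. Amphiphysin (Amph) brings dynamin to the necks of forming clathrin-coated pits, from which the membrane is retrieved.

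All 9 measured genes had a signal of at least 100 on all 49 arrays with the brightest probe set of each, so all 9 passed the filter on dim genes and entered the fit of 8093 genes. A second Vamp2 probe set never reached a signal of 100, lay between 2.9 and 70.1, and was not tested.

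Several arrays stood apart. Ttr, the transthyretin message of the choroid plexus, had signals of 3908 to 12003 on 4 of the 3-month arrays (replicates 4, 6, 7 and 8) and of 16310 on 1 of the 23-month arrays (replicate 11), and at most 1123 on the other 44. Hbb, a globin message, had signals of 659 and 4388 on 23-month replicates 5 and 8 and at most 210.3 on the other 47. Results are given with and without these arrays where a call changed. Of 6 markers of CA1 pyramidal cells all 6 passed the filter, as did all 5 markers of CA2 and CA3 and Prox1, a marker of dentate granule cells.

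Between 23 and 3 months, 3 of the 9 genes were lower and none was higher at an adjusted p under 0.05 in limma, a linear model fitted to all genes at once with Benjamini-Hochberg adjustment over all 8093. The 3 were Syngr3, Slc17a6 and Amph. Of all genes 3.26% were called in this comparison, and 0.853% were called lower. The median difference over the 9 genes was -0.138, against 0.000825 over all genes tested. The 9 genes were chosen with earlier results of these data known. Their counts and median beside those of all genes are therefore a description and not an independent result. By the F-test over all 5 ages, 1 of the 9 passed, Syngr3 (limma, adjusted p = 0.0117), and 1.88% of all genes did. In a limma fit with the replicate number of the labels as a block, 0 of the 9 passed in either test. The share of all genes that passed these tests in that fit is not given here. The values of that fit are in the closing section. CA1 RNA is a mixture of cells, so fewer cells of a type and less RNA per cell cannot be told apart.

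**Figure D1:**
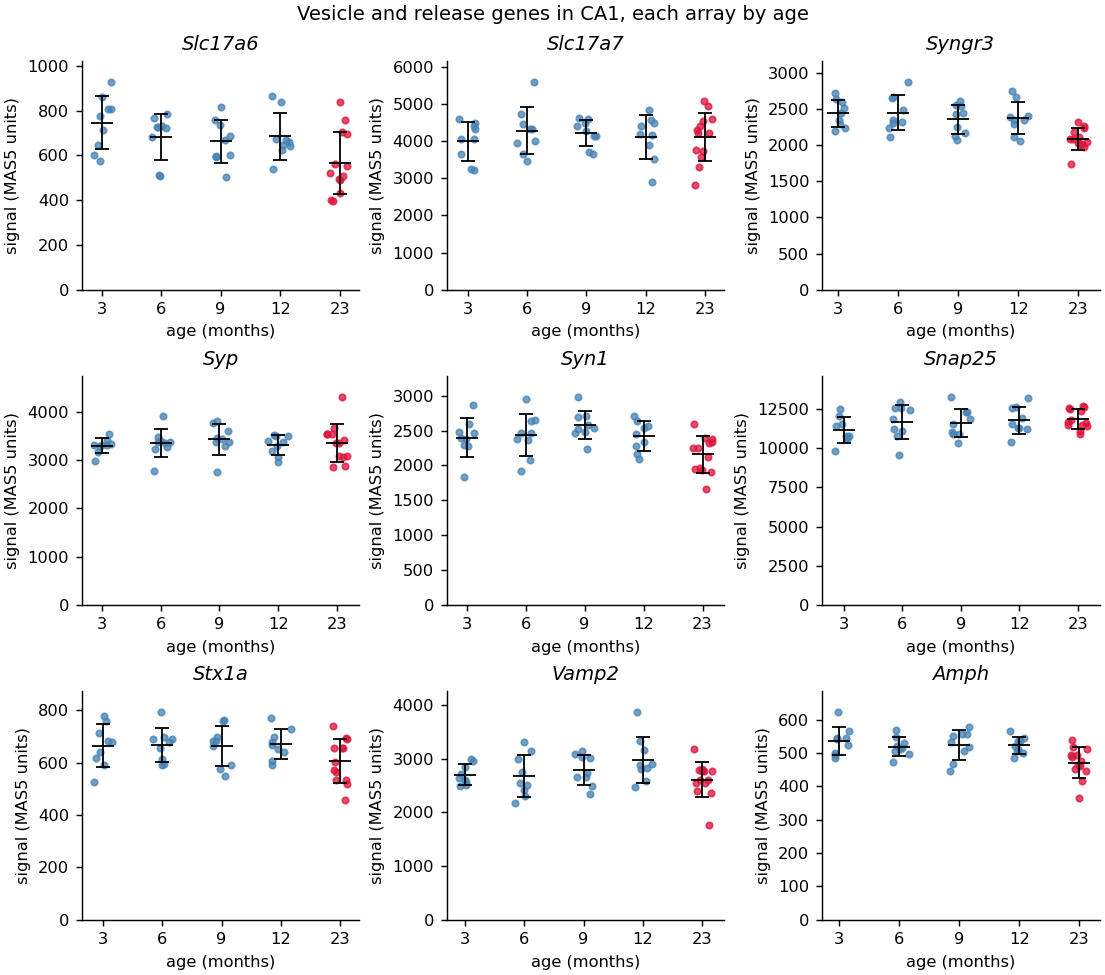
Signals of the 9 genes by age, with 1 panel for each gene, age in months on the horizontal axis and MAS5 signal on the vertical axis. Each point is 1 animal and the bars are the age mean and SD. In the Syngr3 panel 10 of the 13 animals of 23 months lie below the lowest of the 9 animals of 3 months.

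The pair of glutamate transporters differed between them. Slc17a6 was lower at 23 months and Slc17a7 did not pass the test in any comparison. The Slc17a6 signal (probe set 1368564_at) averaged 746 ± 120.0, 684 ± 103, 662 ± 98.0, 684 ± 104 and 566 ± 140.2 at 3, 6, 9, 12 and 23 months (SD, n = 9, 9, 9, 9 and 13). At 23 months the lowest, median and highest animals had signals of 395, 523 and 836, against 577, 777 and 928 at 3 months. The ranges overlapped, but 9 of the 13 old animals lay below every 3-month animal, and 5 of the 13 lay below every younger animal of any age. The log2 difference between 23 and 3 months was -0.42 ± 0.11 (SE), a 1.34-fold lower signal (limma, adjusted p = 0.0139). Slc17a6 was also the most variable gene of the set between animals of one age, with a between-animal SD of 0.211 to 0.347 on the log2 scale depending on age, and the widest spread was at 23 months (24.8% of the mean on the signal scale).

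The Slc17a7 signal (probe set 1368987_at) averaged 4008 ± 527, 4284 ± 633, 4227 ± 353, 4114 ± 592 and 4118 ± 653 at 3, 6, 9, 12 and 23 months (SD, n = 9, 9, 9, 9 and 13). At 23 months the lowest, median and highest animals had signals of 2810, 4229 and 5097, against 3215, 4059 and 4613 at 3 months, so the old animals spread to both sides of the young ones. Between 23 and 3 months the log2 difference was 0.033 ± 0.085 (SE), with a 95% interval of -0.14 to 0.20 (limma, adjusted p = 0.918). The interval spans changes of up to 0.20 log2 units, so it does not show that the level was the same. A dimmer Slc17a7 probe set differed by -0.057 (limma fit of every probe set, adjusted p = 0.805). When the log2 ratio of Slc17a6 over Slc17a7 was taken in each animal, it averaged -2.88 ± 0.48 at 23 months and -2.43 ± 0.38 at 3 months (SD, n = 13 and 9). The ratio differed by -0.45 ± 0.18 (SE), and 10 of the 13 old animals lay below the 3-month mean (exact two-sided permutation test, p = 0.0284, adjusted p = 0.0379 over 4 such pairs). Without the arrays of high Ttr the ratio differed by -0.49 (p = 0.0785 by the same exact test, 12 against 5 animals).

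The 250 bases before the transcription start of both transporter genes are shown because the age differences of these paralogues differed. They come from RefSeq, build GRCr8, at chr1:110348197-110348446, plus strand, for Slc17a6 and at chr1:104785955-104786204, plus strand, for Slc17a7. Capitals mark matches on either strand to TGACG, the short core of the cyclic AMP response element, and to GGGCGG, the GC box.

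Slc17a6: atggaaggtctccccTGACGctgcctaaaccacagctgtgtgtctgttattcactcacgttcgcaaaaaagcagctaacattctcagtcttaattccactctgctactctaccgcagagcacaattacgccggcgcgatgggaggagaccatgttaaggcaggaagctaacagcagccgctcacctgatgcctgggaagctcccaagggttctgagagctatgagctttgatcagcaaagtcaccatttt

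Slc17a7: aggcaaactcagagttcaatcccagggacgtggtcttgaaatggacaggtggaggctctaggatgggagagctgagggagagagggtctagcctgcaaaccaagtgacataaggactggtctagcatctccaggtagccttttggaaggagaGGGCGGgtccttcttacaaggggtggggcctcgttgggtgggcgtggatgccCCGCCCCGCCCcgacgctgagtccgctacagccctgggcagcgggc

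The Slc17a6 window held 1 such core, 235 to 231 bases before the start, and no GC box. The Slc17a7 window held 3 GC boxes, of which 2 share a base, at 98 to 93, 46 to 41 and 41 to 36 bases before the start. The core occurs in 18.2% and the GC box in 30.5% of the 33469 promoter windows of this length. The G and C content was 50.8% for Slc17a6 and 61.2% for Slc17a7, against a median of 51.2% over all windows. Neither window held TATAAA, the TATA box, which 12.9% of windows hold, or TTCAGCACC, the left part of the site of the neuronal repressor REST, which 0.305% hold.

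Among the vesicle membrane genes, Syngr3 was lower in old animals with the smallest p of the set, and its relative Syp was not. The Syngr3 signal (probe set 1390209_at) averaged 2447 ± 188, 2449 ± 243, 2360.5 ± 202, 2376 ± 223.5 and 2088 ± 151 at 3, 6, 9, 12 and 23 months (SD, n = 9, 9, 9, 9 and 13). At 23 months the lowest, median and highest animals had signals of 1738, 2087 and 2320.4, against 2194, 2444 and 2725.5 at 3 months. All 13 old animals lay below the 3-month mean, 10 of the 13 lay below every 3-month animal, and 6 of the 13 lay below every younger animal. The log2 difference between 23 and 3 months was -0.23 ± 0.053 (SE), a 1.17-fold lower signal (limma, adjusted p = 0.00486). The 4 younger ages differed from one another by less than the between-animal spread.

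The Syp signal (probe set 1368276_at) averaged 3300 ± 156, 3360.4 ± 294, 3433 ± 314, 3316 ± 200.5 and 3365 ± 391.5 at 3, 6, 9, 12 and 23 months (SD, n = 9, 9, 9, 9 and 13). Between 23 and 3 months the log2 difference was 0.021 ± 0.054 (SE), with a 95% interval of -0.087 to 0.13 (limma, adjusted p = 0.917). The spread between animals was widest at 23 months, where signals ran between 2857 and 4316, against 2985 and 3541 at 3 months. The log2 ratio of Syngr3 over Syp averaged -0.68 ± 0.22 at 23 months and -0.43 ± 0.12 at 3 months (SD, n = 13 and 9). The ratio differed by -0.25 ± 0.073 (SE), and 11 of the 13 old animals lay below the 3-month mean (exact two-sided permutation test, p = 0.00543, adjusted p = 0.0217 over 4 pairs). Without the arrays of high Ttr it differed by -0.29 (p = 0.0162 by the same exact test, 12 against 5 animals). The 4 pairs were chosen by family with the single-gene values known, so these ratios are not independent of the single-gene results.

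Syn1, the vesicle-coating phosphoprotein that holds the reserve pool, was lower at 23 months by an amount that did not pass the test. Its signal (probe set 1390196_at) averaged 2402 ± 276, 2438 ± 308, 2583 ± 206, 2423 ± 215.5 and 2159 ± 261 at 3, 6, 9, 12 and 23 months (SD, n = 9, 9, 9, 9 and 13). At 23 months the lowest, median and highest animals had signals of 1655, 2245 and 2592.5, against 1839, 2397 and 2869 at 3 months, so the ranges overlapped over most of their length. Of the 13 old animals, 12 lay below the 3-month mean. The log2 difference was -0.15 ± 0.067 (SE) between 23 and 3 months (limma, adjusted p = 0.243). A second Syn1 probe set differed by -0.14 (limma fit of every probe set, adjusted p = 0.376).

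The Syn1 window before the start is shown because it holds a complete cyclic AMP response element, TGACGTCA, which contains the core named above. It lies at chrX:3725495-3725744, plus strand, in RefSeq build GRCr8, and the element is in capitals, 190 to 183 bases before the start.

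Syn1: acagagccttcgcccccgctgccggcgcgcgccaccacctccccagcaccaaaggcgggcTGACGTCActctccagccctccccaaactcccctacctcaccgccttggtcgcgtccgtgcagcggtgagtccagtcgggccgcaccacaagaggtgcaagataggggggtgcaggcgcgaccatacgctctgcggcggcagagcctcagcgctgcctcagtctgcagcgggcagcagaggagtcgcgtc

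The complete element occurs in 1.59% of all windows, and no GC box was found in the Syn1 window. Promoter windows matched 7 of the 9 genes in all. A match is a description of the letters and was not tested for use in these animals.

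None of the 3 SNARE genes passed the test between 23 and 3 months. Snap25 encodes a plasma membrane SNARE that contributes a pair of helices to the fusion complex, and its signal (probe set 1387073_at) averaged 11150 ± 834 at 3 months, 11687 ± 1096.5 at 6 months, 11624 ± 923 at 9 months, 11799 ± 868 at 12 months and 11877 ± 618 at 23 months (SD, n = 9, 9, 9, 9 and 13). The animals of 23 months lay between 10916 and 12729, against 9818 and 12531 at 3 months, and 11 of the 13 lay above the 3-month mean. The log2 difference was 0.093 ± 0.046 (SE) between 23 and 3 months (limma, unadjusted p = 0.0500, adjusted p = 0.346). The value was 0.015 after quantile normalization.

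Stx1a encodes syntaxin 1A, the partner of SNAP-25 on the plasma membrane. Its signal (probe set 1387360_at) averaged 665 ± 81.0, 667 ± 63.8, 663 ± 77.0, 670.3 ± 56.6 and 606 ± 83.2 at 3, 6, 9, 12 and 23 months (SD, n = 9, 9, 9, 9 and 13). The lowest, median and highest animals of 23 months had signals of 457, 602 and 741, against 524, 679 and 777 at 3 months. Of the 13 old animals, 10 lay below the 3-month mean and 2 below every 3-month animal. Between 23 and 3 months the log2 difference was -0.14 ± 0.072 (SE), with a 95% interval of -0.28 to 0.0060 (limma, adjusted p = 0.372). A second, dimmer Stx1a probe set differed by -0.13 (limma fit of every probe set, adjusted p = 0.694). The log2 ratio of Stx1a over Snap25 averaged -4.30 ± 0.22 at 23 months and -4.07 ± 0.18 at 3 months (SD, n = 13 and 9). It differed by -0.23 ± 0.085 (SE), with 10 of 13 old animals below the 3-month mean (exact two-sided permutation test, p = 0.0184, adjusted p = 0.0368 over 4 pairs). This call was lost without the arrays of high Ttr, where the ratio differed by -0.12 (p = 0.289 by the same exact test, 12 against 5 animals). Both ratios over Snap25, this and that of Vamp2 below, include the Snap25 difference of 0.093, which was 0.015 after quantile normalization. The ratios were not taken after quantile normalization.

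Vamp2, the vesicle SNARE, had its highest age mean at 12 months and its lowest at 23 months. Its signal (probe set 1369974_at) averaged 2703 ± 188, 2685 ± 392, 2792 ± 284, 2981 ± 426 and 2608.5 ± 330 at 3, 6, 9, 12 and 23 months (SD, n = 9, 9, 9, 9 and 13). The lowest, median and highest animals of 23 months had signals of 1767, 2606 and 3186.5, against 2499, 2636 and 2996 at 3 months, so the ranges overlapped on both sides. The log2 difference between 23 and 3 months was -0.060 ± 0.074 (SE), with a 95% interval of -0.21 to 0.087 (limma, adjusted p = 0.789). The log2 ratio of Vamp2 over Snap25 averaged -2.20 ± 0.23 at 23 months and -2.04 ± 0.17 at 3 months (SD, n = 13 and 9), and its difference of -0.15 ± 0.085 (SE) did not pass the exact two-sided permutation test (p = 0.101). That ratio lay below the 3-month mean in 11 of the 13 old animals.

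**Figure D2:**
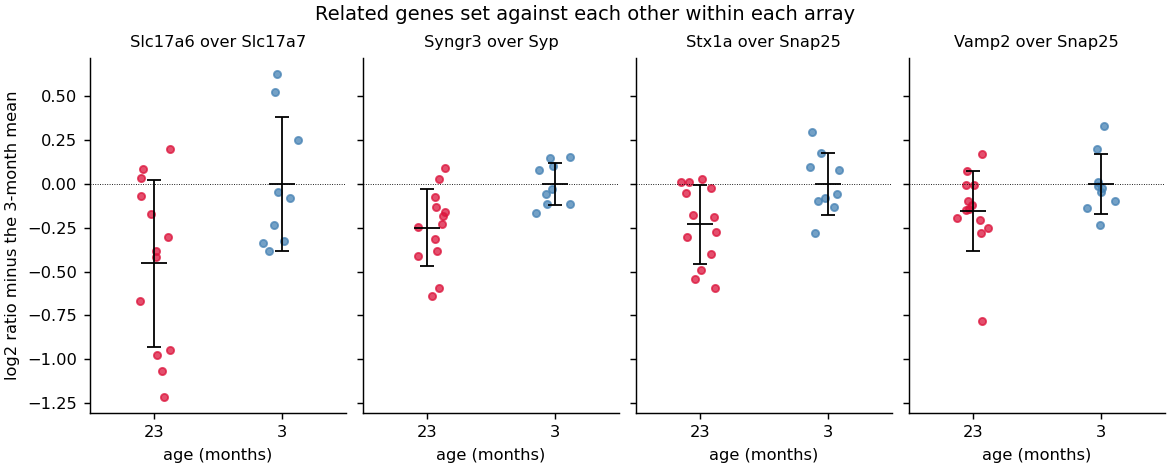
Log2 ratio of signal within each animal, minus the 3-month mean, for 4 pairs of related genes. Each panel is a pair, each point is 1 animal of 23 months (left) or 3 months (right), and the bars are the mean and SD. Of the 13 old animals, 11 lie below the 3-month mean for Syngr3 over Syp and 10 for Slc17a6 over Slc17a7. For Vamp2 over Snap25, which did not pass the test, 11 of the 13 do.

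Amph was lower at 23 months. Its signal (probe set 1369839_at) averaged 536 ± 42.4, 519 ± 28.1, 524 ± 44.1, 523 ± 25.1 and 471 ± 46.3 at 3, 6, 9, 12 and 23 months (SD, n = 9, 9, 9, 9 and 13). At 23 months the lowest, median and highest animals had signals of 365, 476 and 540, against 484.5, 543.5 and 623 at 3 months. Of the 13 old animals, 12 lay below the 3-month mean, 7 lay below every 3-month animal and 3 lay below every younger animal. The log2 difference between 23 and 3 months was -0.19 ± 0.053 (SE), a 1.14-fold lower signal (limma, adjusted p = 0.0286). This call depended on single animals: it was lost without any 1 of 4 arrays, which were 3 months replicates 2 and 6 and 23 months replicates 3 and 14, with an adjusted p of up to 0.0858 in limma. The Syngr3 and Slc17a6 calls held without each of the 49 arrays in turn, with adjusted p of up to 0.0186 and 0.0426 in limma.

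Without the 5 arrays of high Ttr the log2 difference between 23 and 3 months was -0.24 for Syngr3 (limma, adjusted p = 0.0382), -0.21 for Amph (adjusted p = 0.0728) and -0.41 for Slc17a6 (adjusted p = 0.112). The differences were close in size to those over all arrays, and 1 of the 3 calls held with 5 animals of 3 months left. In a limma fit of the arrays of these 2 ages alone the same differences had adjusted p of 0.00550 for Syngr3, 0.107 for Amph and 0.0520 for Slc17a6. Without the 2 arrays of high Hbb all 3 calls held.

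The genes that were lower at 23 months had not passed at any age before it, which does not show that they were unchanged until then. The Slc17a6 difference from 3 months was -0.13, -0.17 and -0.12 at 6, 9 and 12 months, with 95% intervals that crossed 0. Those of Syngr3 and Amph lay between -0.053 and -0.0012. At 12, 9 and 6 months against 3 months, none of the 9 genes passed the limma test and none had an unadjusted p under 0.05, while 0.222%, 0.0371% and 0.0124% of all genes passed and 7.92%, 3.09% and 2.85% had an unadjusted p under 0.05. Between 23 and 12 months, 0 of the 9 passed in limma, against 0.358% of all genes. An unadjusted p under 0.05 was found for 6 of the 9, all lower, against 8.22% of all genes in either direction. Those 6 were Syngr3 (-0.18, adjusted p = 0.168), Amph (-0.16, adjusted p = 0.309), Slc17a6 (-0.30, adjusted p = 0.367), Vamp2 (-0.19, adjusted p = 0.415), Syn1 (-0.17, adjusted p = 0.439) and Stx1a (-0.15, adjusted p = 0.574). The same 6 genes had their lowest age mean at 23 months, which held for 24.0% of all genes. The comparisons with 23 months share those 13 arrays. The choice of the 9 genes with earlier results known limits these counts too.

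With age taken as a number in months, 4 of the 9 genes had a slope that passed the test, all downward, against 5.12% of all genes in either direction and 1.64% downward. The Syngr3 slope was -0.012 ± 0.0023 log2 units per month (SE; limma, adjusted p = 0.000261). The Slc17a6 slope was -0.019 ± 0.0047 (adjusted p = 0.00582), and the Amph slope was -0.0093 ± 0.0023 (adjusted p = 0.00726). Syn1 joined them with a slope of -0.0098 ± 0.0031 (limma, adjusted p = 0.0481). The Syn1 call was lost in 30 of the 49 fits that left out 1 array (adjusted p of up to 0.125) and without the arrays of high Hbb (adjusted p = 0.0845). Other settings that ended it included quantile normalization, no signal filter and no variance trend, at limma adjusted p of 0.0708, 0.0695 and 0.0613. All 4 slopes passed without the arrays of high Ttr. With replicate number as a block 1 of the 4 passed, that of Syngr3. A line through 5 ages gives the 23-month group the most weight. Since the 9 genes were chosen with earlier results of these data known, their share of passing slopes is not an independent result.

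**Figure D3:**
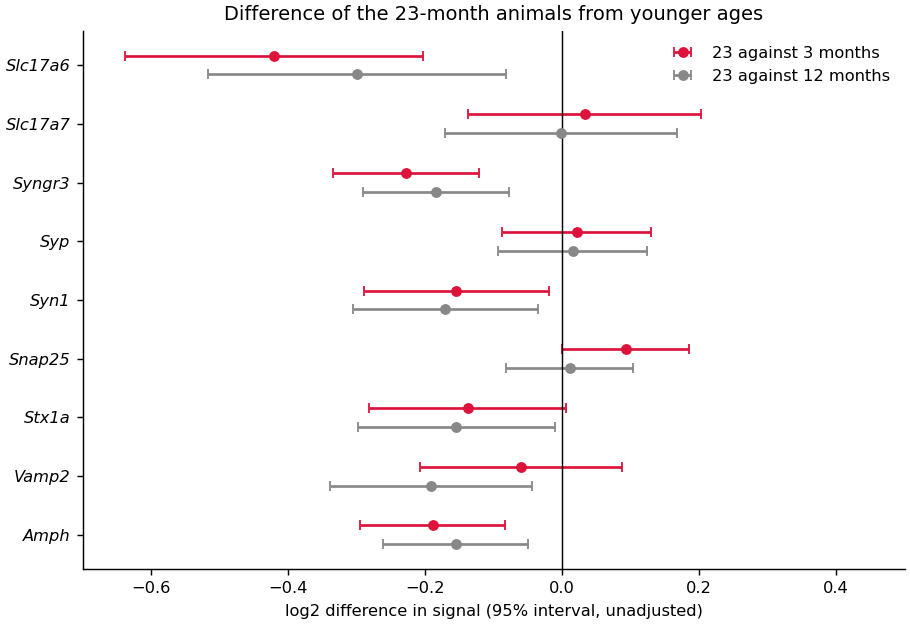
Log2 difference of signal for each of the 9 genes at 23 months against 3 months (red) and against 12 months (grey), as points with unadjusted 95% intervals from the limma fit. For Syngr3, Slc17a6 and Amph both intervals lie below 0, and for Slc17a7 and Syp both cross 0.

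The rest of the release machinery was read through 4 lists of related genes. Of 16 tested genes of the SNARE and fusion machinery, none passed at 23 against 3 months (limma), 2 had an unadjusted p under 0.05, 7 were lower by any amount, and the median log2 difference was 0.016. The unadjusted 2 were Stxbp3 (0.15, adjusted p = 0.193) and Stxbp2 (0.36, adjusted p = 0.217), members of the Munc18 family that bind syntaxins. Of 25 tested genes of calcium sensing, priming and the active zone, none passed, 3 had an unadjusted p under 0.05, 15 were lower, and the median was -0.059. Across all genes 49.6% were lower by any amount in this comparison, 14.4% had an unadjusted p under 0.05 in either direction, and the median was 0.000825.

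Of 18 tested genes of vesicle membrane and vesicle-bound proteins, none passed at 23 against 3 months in limma, 4 had an unadjusted p under 0.05, 7 were lower and the median was 0.054. Of 22 tested genes of vesicle endocytosis, none passed, 4 had an unadjusted p under 0.05, 15 were lower and the median was -0.018. The 4 unadjusted endocytosis genes were all lower and included Sh3gl2 (-0.19, adjusted p = 0.0908), endophilin A1, which recruits synaptojanin to coated vesicles.

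By slope, 5 of the 81 tested genes of the 4 lists passed in limma (6.17%, against 5.12% of all genes), a share near that of all genes, and 4 of the 81 passed downward (4.94%, against 1.64% of all genes). Their values are given as a description of single genes. The lists too were chosen with earlier results of these data known. Rab3a, the vesicle GTPase that binds the active zone through RIM, averaged 2688 ± 273 at 23 months and 2962 ± 214 at 3 months (SD, n = 13 and 9), with 2992 to 3011 at the ages between. Its slope was -0.0084 ± 0.0022 log2 units per month (SE; adjusted p = 0.0139). Sh3gl2 averaged 512 ± 53.8 at 23 months and 583 ± 54.0 at 3 months (SD, n = 13 and 9), with a slope of -0.011 (adjusted p = 0.00786). Svop, a vesicle protein with the fold of transporters, and Scamp3, a carrier membrane protein, had slopes of -0.010 (adjusted p = 0.0290) and -0.011 (adjusted p = 0.0150). Syngr2, a synaptogyrin found mostly outside neurons, ran the other way with a slope of 0.018 (limma, adjusted p = 0.00500). It averaged 177 ± 25.0 at 23 months and 146 ± 24.7 at 3 months (SD, n = 13 and 9), and a second Syngr2 probe set differed by 0.18 between these ages (limma fit of every probe set, adjusted p = 0.454).

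**Figure D4:**
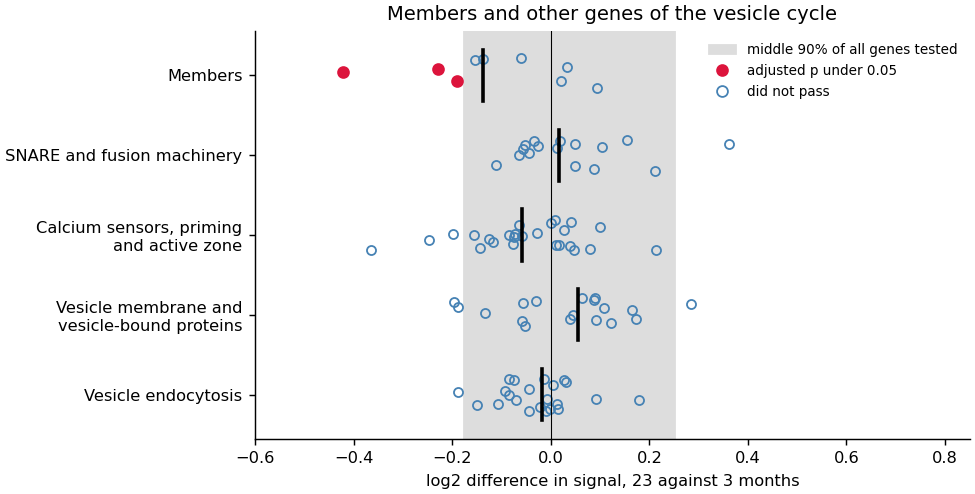
Log2 difference of signal between 23 and 3 months for each tested gene, with 1 row of points for the 9 genes and for each of the 4 lists. Vertical bars are row medians, the shaded band holds the middle 90% of all 8093 genes (-0.18 to 0.25), and red points passed at an adjusted p under 0.05. The 3 red points are Slc17a6, Syngr3 and Amph, and all 3 lie below the band.

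Markers of other cells were set beside these values. Summed signals of 7 neuron markers ran between 20459 and 24748 at 23 months and between 22754 and 25484 at 3 months, and 1 of the 7, Stmn2, was called, lower. Of 6 CA1 pyramidal markers 1, Pou3f1, was called lower, and the sums ran between 12264 and 16544 at 23 months and between 13434 and 17514 at 3 months. Of 8 microglia markers 6 were called higher, and the sums ran between 3719 and 7304.5 at 23 months and between 2980 and 3292 at 3 months. Of 6 astrocyte markers 2, Gfap and Slc1a3, were called higher, and the sums ran between 25833 and 30732 at 23 months and between 23024 and 27112 at 3 months. None of the 5 markers of CA2 and CA3 or of the 5 tested oligodendrocyte markers was called in this comparison. The part of these shifts in the fall of Syngr3, Slc17a6 and Amph was not tested.

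VGLUT2 is typical of thalamic neurons, and 2 of the 6 markers of thalamus and neighbouring regions, Tcf7l2 and Prkcd, passed the filter. Their summed signal averaged 542 ± 60.9 at 23 months and 481 ± 38.2 at 3 months (SD, n = 13 and 9), and neither was called. Lef1 and Zic1 lay below the filter, and Rora and Nts were not measured here. The part of tissue from outside the hippocampus in the Slc17a6 values was not tested.

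Within ages, after each animal's log2 signal was centred on its age mean, Slc17a6 was lower in animals whose summed CA2 and CA3 markers were higher. Pearson's r was -0.575 over 49 animals (permutation test within ages, p = 8.00e-05, adjusted p = 0.00128 over 48 relations), Spearman's rho was -0.603, and r was -0.532 without the 2 animals farthest from the median of Slc17a6. The CA2 and CA3 sum averaged 5037 at 3 months, and its largest part was Pcp4, with a mean of 2385. Its 5 markers were not set against Slc17a6 singly. Slc17a6 also ran against the dentate markers (r = -0.421, rho = -0.462, adjusted permutation p = 0.0431, and r = -0.416 without the 2 farthest animals). That dentate sum held 2 of the 5 listed genes, Prox1 and Dsp, and was mostly Prox1 (means of 623 and 121 at 3 months). The relation with the thalamic markers did not pass (r = 0.145, permutation p = 0.334). These relations share the array, so dissection and scaling act on both sides of each. The permutations treated animals of one age as exchangeable and took no account of replicate number.

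Syngr3 was higher within ages in animals with higher astrocyte markers (r = 0.542, rho = 0.526, adjusted permutation p = 0.00128, and r = 0.478 without the 2 farthest animals), although between 23 and 3 months Syngr3 was lower and the astrocyte sum higher. Syn1 ran against the oligodendrocyte markers (r = -0.609, rho = -0.629, r = -0.583 without the 2 farthest animals, adjusted permutation p = 0.00048, where the unadjusted p of 1.00e-05 is the smallest the permutations can give). The oligodendrocyte sum averaged 34083 at 3 months, and its largest part was Mbp, with a mean of 18424. Syn1 also ran against the CA1 pyramidal markers (r = -0.460, rho = -0.510, adjusted permutation p = 0.0192, and r = -0.431 without the 2 farthest animals). These were the 5 of 48 relations that passed, and each kept its sign without the arrays of high Ttr (r of -0.413 to -0.594 for the 4 negative relations) and without those of high Hbb. The 48 relations cover only Syngr3, Slc17a6, Amph and Syn1, the genes whose slope passed. The other members were not set against the markers.

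Relations from animal to animal were tested for each pair of the 9 genes. Of 36 pairs, 25 had a positive r within ages and the median r was 0.063. By r, 2 passed a permutation test within ages with adjustment over the 36. Syp and Vamp2, both proteins of the vesicle membrane that bind each other, were positively related (r = 0.582, rho = 0.468, adjusted permutation p = 0.0018), with r = 0.507 without the 2 animals farthest from the Syp median. Syngr3 and Slc17a7 were negatively related (r = -0.469, rho = -0.494, adjusted permutation p = 0.0193), with r = -0.433 without the 2 farthest animals. Replicate 1 had Syngr3 above and Slc17a7 below the age mean at every age. When rho was tested in place of r, Slc17a7 also passed with Syp (rho = 0.433, adjusted permutation p = 0.0421). It passed with Syn1 as well (rho = 0.416, adjusted permutation p = 0.0445). By r neither pair passed (r = 0.392 and 0.395, adjusted permutation p = 0.0656 for both). The permutations took no account of replicate number, so these p-values may be too small if same-numbered arrays share structure. None of the pairs among Syngr3, Slc17a6 and Amph passed.

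**Figure D5:**
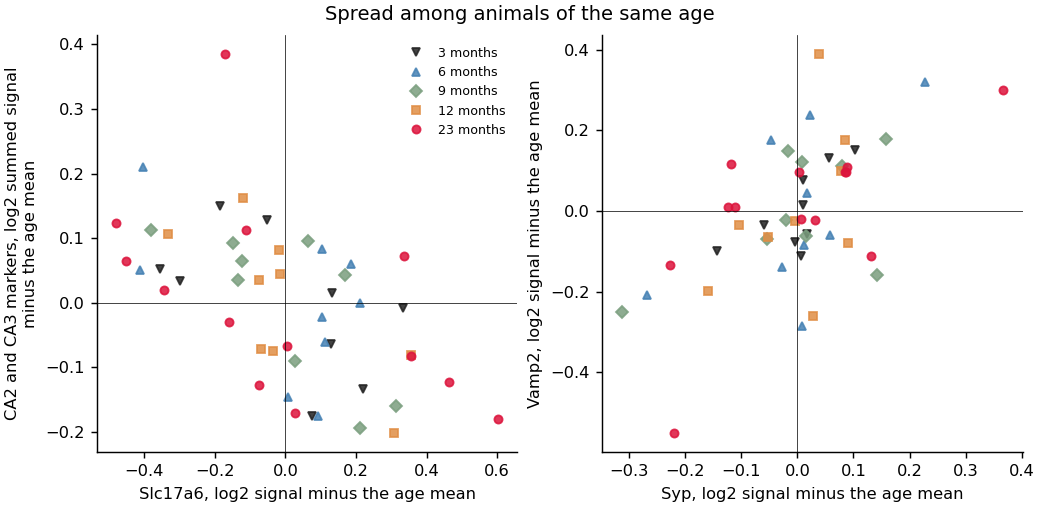
Log2 signal minus the mean of the animal's own age, with 1 point for each of 49 animals coloured by age. In the left panel the summed CA2 and CA3 markers run opposite to Slc17a6 (r = -0.575), and in the right panel Vamp2 runs with Syp (r = 0.582).

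The genes whose log2 signal was most like that of each called gene over the 49 arrays were ranked by Pearson's r, as a description. For Syngr3 they were Lmtk2 (r = 0.707), Arfgef1 (r = 0.701) and Nfasc (r = 0.673), and r within ages was 0.607, 0.678 and 0.595. For Slc17a6 they were Rgs4 (r = 0.712), Cbln2 (r = 0.673) and Nxph3 (r = 0.650), and r within ages was 0.718, 0.634 and 0.666. For Amph they were Cant1 (r = 0.559), Gnaz (r = 0.553) and Wdr7 (r = 0.535), lower than for Syngr3 and Slc17a6, and r within ages was 0.542, 0.387 and 0.385. Of these 9 genes, Nfasc (-0.39, adjusted p = 0.000473), Lmtk2 (-0.20, adjusted p = 0.0442) and Gnaz (-0.20, adjusted p = 0.0388) were called between 23 and 3 months in limma, all lower. The likeness over 49 arrays includes the shared age difference and any shared scaling error.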

How the data were processed

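RNA from the CA1 region of 49 Fisher 344 rats was measured on Affymetrix RAE 230A arrays, 1 animal to an array. The deposited values are MAS5 signals, a linear intensity for each of 15923 probe sets, scaled by the authors to a target intensity of 500 on each array, per the series' design text. The scaling was checked on the values: the mean of each array after trimming 2% at each end was 500.1. The precision is limited by the number of arrays, and no depth applies. The deposited table held no batch, scan date or detection call that could be used as a block, and the annotation gave 1 symbol to 12783 probe sets, several to 312 and none listed to 2771, besides 57 control probe sets. For 12748 probe sets the Entrez ID was found in RefSeq, and the RefSeq symbol was used.

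Signals under 16 were set to 16 and log2 was taken of the deposited intensities. Each gene was represented by its brightest probe set, and 8093 of 10411 genes had a signal of at least 100 on at least 5 arrays. One limma fit (limma 3.58.1 in R 4.3.3) with a mean for each of 5 ages gave the F-test and contrasts, and a second with age in months gave the slope. P-values were adjusted by Benjamini-Hochberg over all genes and called under 0.05. A fit of 9541 probe sets gave the values of second probe sets. Ratios of related genes were tested by exact permutation over animals, and relations within ages by 100000 permutations within ages (Python 3.11.15, NumPy 2.4.6). The fit was tested on simulated data. The smallest SD of the log2 difference between any pair of arrays was 0.240, so no array repeats another.

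The design text once gives the oldest age as 25 months, and the sample labels, which give 23, were used. The replicate numbers come from the labels and name separate animals. The main fit has no block on the numbers, and the fit with one is given in the closing section. The genes named were every member, the 4 genes of smallest p at 23 against 3 months in each list (the text gives those with most bearing), 3 most alike genes for each called member, genes of the lists called by slope, chosen after their values were seen, and markers. The members and lists were chosen with earlier results of these data known.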

Additional observations from a re-analysis of the deposited data

Results flagged for a closer look

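In 48 groups of 9 animals (a probe set at an age), 4 held an animal whose gap to the others was above Dixon's 95% critical value of 0.493, and chance flags about 1 in 20 such groups. Syp on 9 months replicate 2 had a signal of 2751.5, below 3293 to 3817 in the other 8 animals. Stx1a on 6 months replicate 2 had a signal of 406 with its dimmer probe set, above 226 to 289 in the others. 6 months replicate 7 was flagged for both the dimmer Slc17a7 probe set, with a signal of 1372 against 773 to 1014.5 in the others, and the dimmer Syn1 probe set, with 1139.5 against 769 to 933. None of the 4 is at 3 or 23 months, so none enters the means of the 23 against 3 months comparison. The 23-month group of 13 animals was too large for this rule.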

How the results depend on the processing

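Over the alternatives other than leaving out single arrays, 723 single-gene values kept their direction and their side of the threshold, 15 fell short of it, 3 came to pass it and 15 changed sign. The Syngr3 differences at 23 against 3 months kept both except under the replicate block. With replicate number as a block, 0 members passed at 23 against 3 months (Syngr3 -0.19, adjusted p = 0.0590, Slc17a6 -0.33, adjusted p = 0.139, and Amph -0.13, adjusted p = 0.237), 0 passed by F-test, 1 passed by slope (Syngr3, while Amph had an adjusted p of 0.210, Slc17a6 of 0.132 and Syn1 of 0.10), and 28 and 5 genes passed at 12 and 9 against 3 months, where 18 and 3 had. The counts of all genes called at 23 against 3 months and by F-test changed under the block by a smaller factor than those at 12 and 9 months. The numbers were not taken to pair the animals, since the labels name separate animals and give no shared litter or batch. Of 86 same-numbered pairs of arrays, 33 had a correlation of deviations from the age means over 0.1. Over the 86 pairs the range was -0.131 to 0.361 and the median 0.0554, against a median of -0.00969 for different numbers. Of 44 arrays with a partner, 17 were closest to their own number. These values are a hint of shared structure from the data and not from the design, and the cause of the changes was not tested.

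At 23 against 3 months, 1 member passed without the arrays of high Ttr and 1 in a fit of the ages compared only. All genes called there were 173 without the arrays of high Ttr, against 264. Counts of all genes called also moved at 9 against 3 months (5 with every probe set, 8 with array weights, 1 without the arrays of high Ttr), at 12 against 3 months (37 with array weights), at 6 against 3 months (0 in the fit of the ages compared only and 2 without the arrays of high Ttr, against 1), and at 23 against 12 months (14 in the fit of the ages compared only, against 29). That fit also called 1 gene of the vesicle protein list lower. The plain analysis of variance at an unadjusted p under 0.05 passed 4 members and 757 genes.

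Values that changed sign were near 0 and passed under no setting. They were Syp (-0.016 with quantile normalization, -0.0032 with array weights) and Stx1a (-0.017 with array weights) at 12 against 3 months. Stx1a at 9 against 3 months was 0.0038 with quantile normalization, 0.0031 with median centring and 0.056 without the arrays of high Ttr. Slc17a7 was -0.032 with the replicate block at 23 against 3 months, and 0.011 with quantile normalization and 0.040 without the arrays of high Hbb at 23 against 12 months. Snap25 was -0.019 at 23 against 12 months with quantile normalization. Slopes that changed sign were those of Snap25 (-3.33e-05 with quantile normalization), Syp (-1.52e-05 with median centring, -0.00012 with array weights, -0.00012 without the arrays of high Hbb) and Slc17a7 (0.0016 without the arrays of high Hbb).

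Leaving out each array in turn gave ranges of 1 to 2 members by F-test and 2 to 3 at 23 against 3 months, 0 to 1 genes called lower in the priming and endocytosis lists and higher in the vesicle protein list, 3 to 6 genes at 9 against 3 months and 16 to 33 at 23 against 12 months. Differences whose range crossed 0 were those of Slc17a7 (-0.0056 to 0.077 at 23 against 3 months, -0.0037 to 0.096 at 12 against 3 months, -0.063 to 0.043 at 23 against 12 months), Syp (-0.0094 to 0.040 at 23 against 3 months, -0.012 to 0.026 at 12 against 3 months, -0.0058 to 0.056 at 6 against 3 months, -0.015 to 0.034 at 23 against 12 months), Syn1 (-0.031 to 0.049 at 12 and -0.027 to 0.061 at 6 against 3 months), Stx1a (-0.025 to 0.046 at 12, -0.045 to 0.028 at 9 and -0.034 to 0.037 at 6 against 3 months), Syngr3 (-0.031 to 0.024) and Vamp2 (-0.060 to 0.015) at 6 against 3 months, and Snap25 (-0.011 to 0.032) at 23 against 12 months. Slopes did so for Slc17a7 (-0.0021 to 0.0018) and Syp (-0.0014 to 0.0013).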
